A study of Mus musculus with 4 samples.

Results

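The genes of SNARE-dependent vesicle fusion and release were examined in RNA-Seq data of mouse HT-22 cells with and without PGC-1α overexpression and oxygen and glucose deprivation (OGD). Members were taken by gene symbol. They comprise the synaptotagmins (Syt), syntaxins (Stx), syntaxin binding proteins (Stxbp), VAMPs, SNAPs, synapsins 1 to 3, SV2 proteins, complexins, synaptogyrins and SCAMPs, every symbol that begins with Rab3, and Nsf, Napa, Napb, Napg, Prrt2, Syp and Sypl. Of 100 annotated mouse symbols that match, 61 had at least 1 listed transcript, among 11502 gene symbols in all. Averaged over the 4 libraries, the level reached 1 FPKM (fragments per kilobase of transcript, relative to the size of the library) for 57 of the 61, and these 57 were compared. The other 4 (Syp, Sv2a, Syngr1 and Syn2) were described by their levels only. Because the rule is written in letters, it also took GTPases of the Rab30 to Rab39 series, of which 7 had a listed transcript, and these are described apart from Rab3.

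HT-22 cells are an immortalized line of mouse hippocampal origin, described as neuronal. Ctrl cells carried a negative control lentivirus according to the study's methods, although the sample labels call them wild type, and PGC-1α cells carried a lentivirus that overexpresses PGC-1α, a transcriptional coactivator of mitochondrial and energy metabolism genes. By the same methods both were infected and selected with puromycin, but the labels do not say so for Ctrl. For Ctrl+OGD and PGC-1α+OGD, these cells were kept for 2 h in 5% CO2 and 95% N2 with neither serum nor glucose in the medium, and were then returned to normal medium for 24 h. With 1 library per group, nothing below could be checked between replicates, and p values were not computed. The question was whether PGC-1α overexpression, OGD or both changed the mRNA levels of the vesicle fusion machinery.

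Vesicles fuse when an R-SNARE on the vesicle (a VAMP) zippers with Q-SNAREs on the target membrane (a syntaxin and a SNAP-25 family protein) into a tight bundle. Sec1/Munc18 proteins guide the assembly, synaptotagmins and complexins tie it to calcium, and NSF with its SNAP adaptors takes the bundle apart for reuse. Neurons use dedicated isoforms for transmitter release (Stx1a, Snap25, Vamp2, Syt1), while other members serve traffic between the endoplasmic reticulum, Golgi, endosomes and plasma membrane in every cell.

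The deposited values per transcript were taken as FPKM, which is scaled by length, so that levels of different genes can be set side by side. The sums over the table lay between 331892 and 353381, and the number of reads behind them is unknown. Runs of 4 values below begin with Ctrl and PGC-1α, followed by Ctrl+OGD and PGC-1α+OGD. Ppargc1a, which encodes PGC-1α, was at 0.900, 35.1, 0.103 and 8.41 FPKM after its transcripts were summed, higher in each PGC-1α library than in its control. As a check of the neuronal label, 24 of 27 neuronal markers had no listed transcript, Rbfox3, Tubb3, Map2 and Dcx among them. The other 3, Camk2a, Eno2 and Ncam1, summed to 9.90, 6.87, 8.90 and 7.59 FPKM, and Eno2 and Camk2a passed 1.5-fold in 1 or more comparisons. In contrast, 7 of 8 fibroblast and mesenchyme markers were listed and summed to 989, 1049, 1026 and 961 FPKM, and 3 of them (Fn1, Pdgfrb and Col3a1) passed 1.5-fold. Of 6 astrocyte markers 3 were listed, summing to 16.4, 24.0, 13.6 and 19.0 FPKM, and S100b and Aldh1l1 passed 1.5-fold. Of 6 oligodendrocyte markers 1 was listed (3.88, 3.26, 3.52 and 4.76 FPKM), of 6 microglia markers 2, with a sum of 0.740, 1.57, 2.66 and 0.779 FPKM, and of 4 endothelial markers 0. A mean of at least 1 FPKM was reached by 3 neuronal, 6 fibroblast and mesenchyme and 2 astrocyte markers. Of all genes at that level, 24.7% passed 1.5-fold in 1 or more comparisons. The part of these markers in the results below was not tested, and in bulk RNA fewer cells of a type cannot be told apart from less RNA per cell.

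The neuronal isoforms of the release machinery were thinly represented. Of 26 isoforms counted as neuronal from general knowledge, 12 had a listed transcript and 8 reached a mean of 1 FPKM, among them Vamp2, Scamp5, Prrt2, Rab3a, Cplx2, Vamp1 and Napb. No transcript was listed for 14, among them Stx1a, Snap25, Syt1, Syt2, Cplx1, Syn1, Syn3, Sv2b, Sv2c, Rab3c, Syngr3, Snap91 and Stxbp5l, and their levels are not given here, since no listed transcript stayed below 0.50 FPKM in all libraries and lower ones may have been left out. Paralogs of wider use were listed. Beside the unlisted Stx1a these were Stx4a (mean 27.7 FPKM), Stx2 (20.7 FPKM) and Stx3 (7.14 FPKM), and beside Snap25 it was Snap23 (26.6 FPKM). Napa, the general α-SNAP, had a mean of 20.3 FPKM against 1.01 FPKM for the neuronal Napb, and Syngr2 had 33.2 FPKM against 0.265 FPKM for Syngr1. Picalm, the general relative of the unlisted clathrin adaptor Snap91, was at 19.5, 18.9, 19.4 and 19.8 FPKM.

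Some neuronal isoforms were at or above a listed paralog in their mean. Scamp5 had a mean of 10.7 FPKM against 8.25 FPKM for Scamp2, though below Scamp3. Rab3a had a mean of 5.73 FPKM against 5.58 FPKM for Rab3d, but in Ctrl it was the lower (3.58 against 6.14 FPKM). Vamp2 was the most abundant neuronal isoform. This synaptic vesicle R-SNARE stood at 45.1 FPKM in Ctrl and 44.6 in PGC-1α, then 45.9 in Ctrl+OGD against 42.2 in PGC-1α+OGD, about level with Vamp3 (cellubrevin, 47.8, 43.5, 47.7 and 42.7 FPKM) and below Vamp8 (endobrevin, 71.1, 68.4, 62.4 and 52.5 FPKM). Of the synaptic vesicle proteins below the filter, Syp (synaptophysin) was at 0.997, 0.258, 0.893 and 0.507 FPKM, Sv2a at 0.705, 0.394, 0.366 and 0.705 FPKM, Syngr1 at 0.288, 0.737, 0 and 0.0355 FPKM and Syn2 at 0.0546, 0.621, 0.222 and 0.0851 FPKM. None of these 4 exceeded 1 FPKM in any library, and Syngr1 was listed at 0 in Ctrl+OGD.

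**Figure D1:**
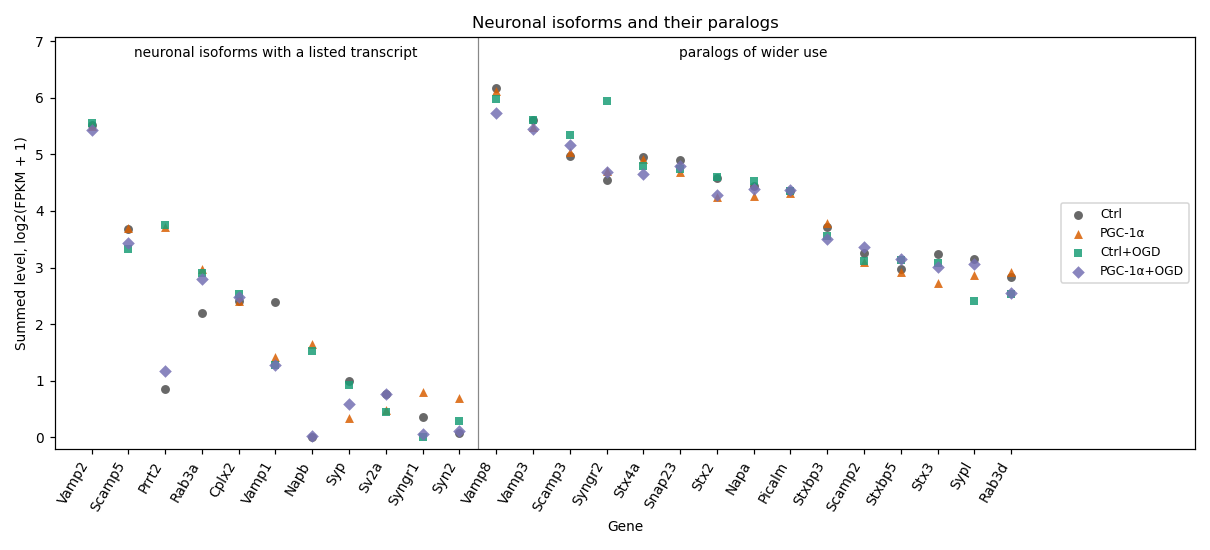
Level on the y axis, as log2(FPKM + 1) of the summed transcripts, of 11 of the 12 neuronal isoforms with a listed transcript (left) and of their paralogs of wider use (right), with 1 point per library and genes ordered by mean within each side. Vamp2 sits with the highest paralogs at a mean of 44.4 FPKM, whereas Syp, Sv2a, Syngr1 and Syn2 lie below 1 FPKM, and Prrt2 and Napb split into a high and a low pair of libraries.

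Fold changes were computed as differences of log2(FPKM + 1) of the summed transcripts, a scale on which changes of low genes look smaller than they are, and the criterion for a higher or lower level was 1.5-fold. In PGC-1α vs Ctrl, 6 of 57 members were higher (Prrt2, Napb, Rab3a, Rab30, Syt13 and Stx6), which is 10.5% of members beside 4.91% of all 10604 genes compared. Lower were 3, with Vamp1 and Scamp4 among them, 5.26% beside 5.63%. In PGC-1α+OGD vs Ctrl+OGD, 2 were higher (Scamp4 and Sypl), 3.51% beside 3.08%, and 4 were lower (Prrt2, Napb, Syngr2 and Stx6), 7.02% beside 3.82%. In Ctrl+OGD vs Ctrl, 6 were higher (Prrt2, Napb, Syngr2, Stx6, Rab3a and Rab30), 10.5% beside 6.20%, and 4 were lower (Scamp4, Vamp1, Sypl and Scamp1), 7.02% beside 7.71%. In PGC-1α+OGD vs PGC-1α, 1 was higher (Scamp4), 1.75% beside 3.82%, and 6 were lower (Prrt2, Napb, Rab33b, Stx6, Rab30 and Rab37), 10.5% beside 5.22%.

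Most members stayed within 1.5-fold in every comparison. In all, 14 of 57 members (24.6%) passed it in 1 or more of the 4 comparisons, beside 24.7% of all genes, and 43 passed it in none. The median log2 spread between the highest and lowest library was 0.36 for members and 0.41 for all genes. Of 32 members with a mean of at least 10 FPKM, 4 passed 1.5-fold in 1 or more comparisons (19.0% of all genes at that level), and of 25 below 10 FPKM, 10 passed (32.4% of all genes). The median log2 fold changes of members were 0.03 for PGC-1α and -0.10 for OGD, each against Ctrl, -0.02 between the OGD libraries and -0.10 for OGD in PGC-1α cells. Those of all genes were -0.03, -0.02, -0.01 and 0.00 in the same order.

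**Figure D2:**
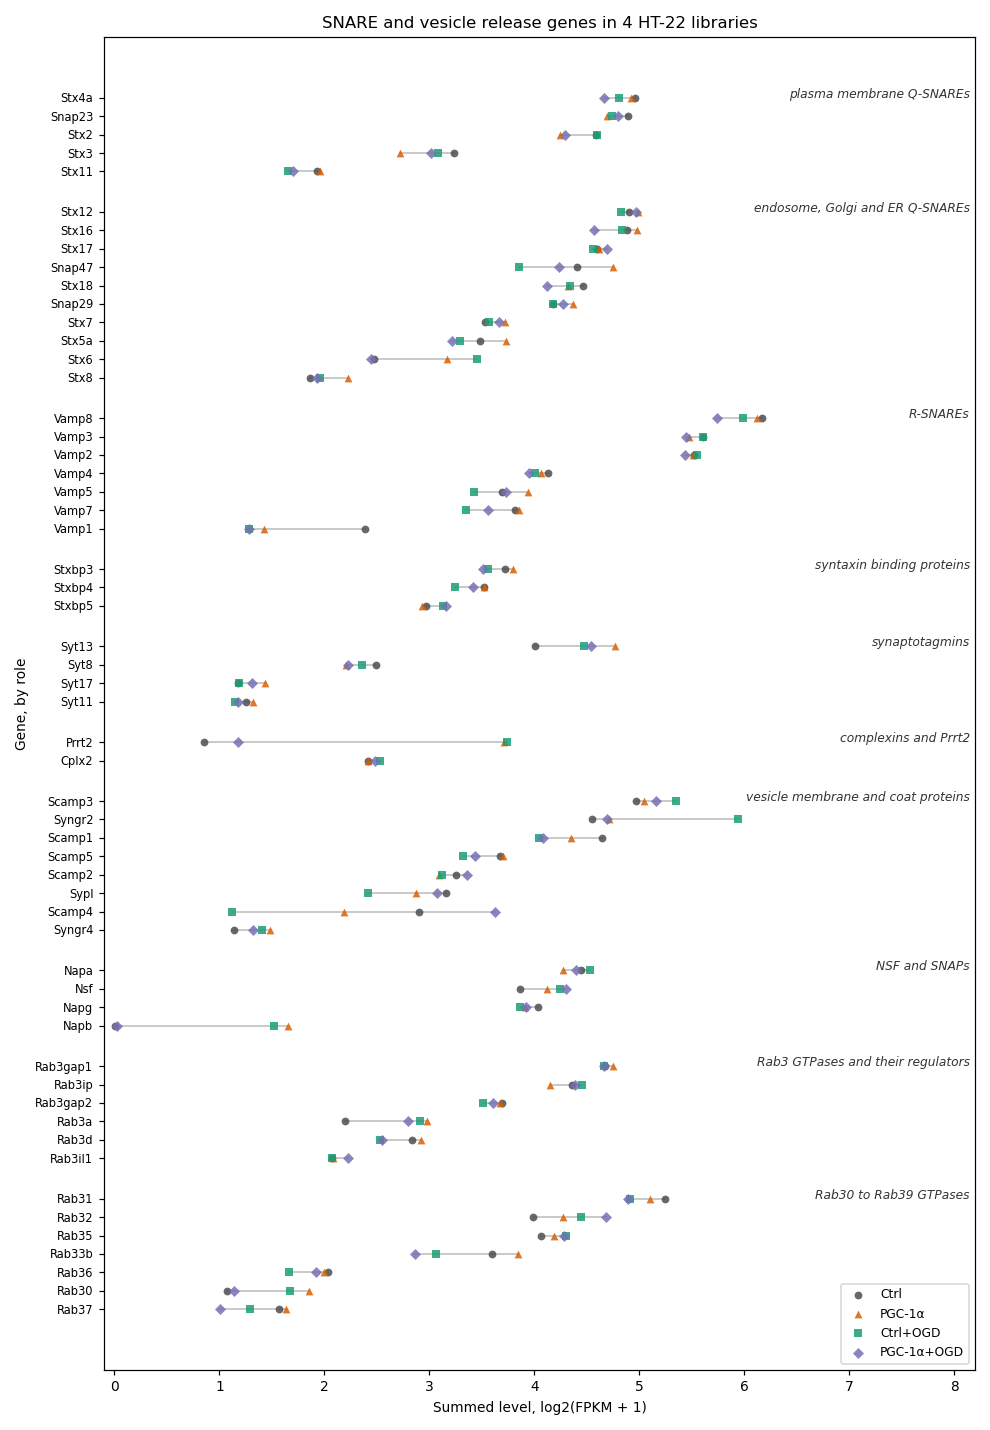
Summed level of 56 of the 57 compared members, as log2(FPKM + 1) on the x axis, by role on the y axis, with 1 symbol per library and a line from the lowest to the highest. For 23 members the line is shorter than 0.3, and the long lines belong to Prrt2, Scamp4, Napb, Syngr2, Vamp1 and Stx6.

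The Q-SNAREs of the plasma membrane stayed within 1.5-fold as summed genes. None of the 5 passed it in any comparison, beside 24.7% of all genes that passed in 1 or more. Stx4a, a syntaxin of regulated surface delivery such as glucose transporter insertion, was at 30.2, 29.4, 26.9 and 24.3 FPKM. Snap23, the general SNAP-25 relative, was at 28.8, 24.9, 25.7 and 26.8 FPKM. Its transcript with the highest mean, ENSMUST00000116437, was at 0.0383, 14.9, 15.4 and 16.4 FPKM, low in Ctrl only. Against Ctrl its log2 values were 3.94 for PGC-1α and 3.98 for Ctrl+OGD, and each depends on that library. Another transcript, ENSMUST00000110711, was highest in Ctrl (19.8, 2.84, 4.37 and 6.21 FPKM). Stx2 was at 23.1, 17.9, 23.3 and 18.5 FPKM. Stx2 was lower in both PGC-1α libraries than in their controls by log2 values of -0.35 and -0.31, short of 1.5-fold. Stx3, a syntaxin of apical surfaces, was lowest in PGC-1α (8.39, 5.58, 7.48 and 7.08 FPKM, log2 fold change -0.51 in PGC-1α vs Ctrl), and Stx11 was at 2.80, 2.88, 2.15 and 2.25 FPKM. Stx19 had no listed transcript.

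Below its sum, Stx2 divided by PGC-1α. Its 125-base exon at chr5:128987718-128987842 (minus strand, GRCm38) ends the coding sequence in 1 form, and skipping it moves the end into the next exon, so that 867 coding bases become 864 with a different end. The end of a syntaxin is known to hold its membrane anchor. The sequences are from GENCODE M21 transcripts and are shown because the libraries divide over this exon. Capitals mark its 78 coding bases, and the lower-case letters are up to 20 neighbouring coding bases on each side.
Stx2 with the exon: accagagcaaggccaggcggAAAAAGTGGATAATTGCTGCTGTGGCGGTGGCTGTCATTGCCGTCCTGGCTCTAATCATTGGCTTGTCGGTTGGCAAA
Stx2 without the exon: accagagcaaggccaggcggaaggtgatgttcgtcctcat
The transcript with the exon was at 22.1 FPKM in Ctrl and 11.2 in PGC-1α, then 22.0 in Ctrl+OGD against 13.7 in PGC-1α+OGD, and the transcript without it (ENSMUST00000100680) at 0, 6.10, 0 and 4.54 FPKM. The latter was listed at 0 in both control libraries and present in both PGC-1α libraries. Of these 2 transcripts, the share with the exon was 100%, 64.8%, 100% and 75.1%, and of the sum of the whole gene it was 95.5%, 62.7%, 94.4% and 73.7%. PGC-1α+OGD vs Ctrl+OGD shares no library with PGC-1α vs Ctrl. Stx2, Stx18 and Rab3gap2 were picked for such sequences after their values were seen, and the values belong to whole transcripts as the authors' estimator divided the reads, not to reads over an exon.

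All 10 Q-SNAREs of endosomes, Golgi and endoplasmic reticulum were listed. Of these, only Stx6 passed 1.5-fold as a sum in any comparison, beside 24.7% of all genes. The most abundant were Stx12 of recycling endosomes (28.9, 30.8, 27.4 and 30.2 FPKM), Stx16 of the trans-Golgi network (28.6, 30.6, 27.6 and 22.8 FPKM) and Stx17, the syntaxin of autophagosome fusion (23.1, 23.6, 22.6 and 24.8 FPKM). None of the 3 passed 1.5-fold. Stx6, which acts between endosomes and the trans-Golgi network, was at 4.54 FPKM in Ctrl and 7.97 in PGC-1α, then 9.99 in Ctrl+OGD against 4.44 in PGC-1α+OGD. It was higher in PGC-1α and in Ctrl+OGD than in Ctrl (log2 0.70 and 0.99), and lower in PGC-1α+OGD than in Ctrl+OGD or PGC-1α (-1.01 and -0.72). In Ctrl+OGD a 955-base transcript (ENSMUST00000195302) supplied 4.57 FPKM and was at most 0.0841 FPKM elsewhere. The 4589-base transcript alone was at 4.54, 7.88, 5.43 and 4.44 FPKM, so that by the highest transcript, or with transcripts weighted by length, the calls that use Ctrl+OGD were lost and those of PGC-1α+OGD vs PGC-1α and of PGC-1α vs Ctrl were kept.

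Snap47 as a sum was lower after OGD in both cell types without reaching 1.5-fold (20.2, 25.9, 13.5 and 17.8 FPKM, log2 -0.55 and -0.52). Its highest transcript, ENSMUST00000010038, was at 13.1, 21.3, 12.5 and 12.2 FPKM. By that transcript the OGD values were -0.06 in Ctrl cells and -0.75 in PGC-1α cells. Exons of Snap47 overlap on the opposite strand with Jmjd4, which was at 2.61, 3.04, 0.551 and 4.14 FPKM. Whether the authors' counting used strand is not given in the sources used here. Snap29 was at 17.1, 19.6, 17.1 and 18.3 FPKM, while its opposite-strand neighbour Pi4ka was at 0, 6.78, 1.58 and 0 FPKM. Stx7 and Stx8, partners in late endosome fusion, were at 10.5, 12.2, 10.9 and 11.7 FPKM and 2.63, 3.68, 2.89 and 2.80 FPKM, and Stx5a, the Golgi syntaxin, at 10.2, 12.3, 8.78 and 8.28 FPKM.

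Stx18, the syntaxin that receives Golgi vesicles at the endoplasmic reticulum, was steady as a sum (21, 19.0, 19.3 and 16.3 FPKM) and divided by OGD in its transcripts. The forms differ by 92 bases at chr5:38136263-38136354 (plus strand), part of the last coding exon, but not only there. The main form with these bases, ENSMUST00000114126, is 3002 bases long and the form without them 1471. Both share 909 coding bases before it. With the segment the coding sequence runs to 1002 bases, and without it the frame ends after 924. The segment in capitals is shown because it carries the end of the protein, and lower case marks the coding bases around it.
Stx18 with the segment: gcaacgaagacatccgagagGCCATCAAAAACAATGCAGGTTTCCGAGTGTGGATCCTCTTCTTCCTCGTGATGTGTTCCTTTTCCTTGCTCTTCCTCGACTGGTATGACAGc
Stx18 without the segment: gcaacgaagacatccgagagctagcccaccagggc
The 2 transcripts with the segment summed to 0.572 FPKM in Ctrl and 1.99 in PGC-1α, then 9.67 in Ctrl+OGD against 13 in PGC-1α+OGD. The transcript without it (ENSMUST00000031008) was at 15.2, 14.1, 4.40 and 0 FPKM, listed at 0 in PGC-1α+OGD. Of the transcripts that span the place, the share with the segment was 3.62%, 12.3%, 68.7% and 100%. The other 3 listed transcripts do not span it, and of the sum of the whole gene the share with the segment was 2.72%, 10.5%, 50.2% and 79.8%. It was low in both libraries without OGD and high in both with OGD, and PGC-1α+OGD vs PGC-1α shares no library with Ctrl+OGD vs Ctrl.

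**Figure D3:**
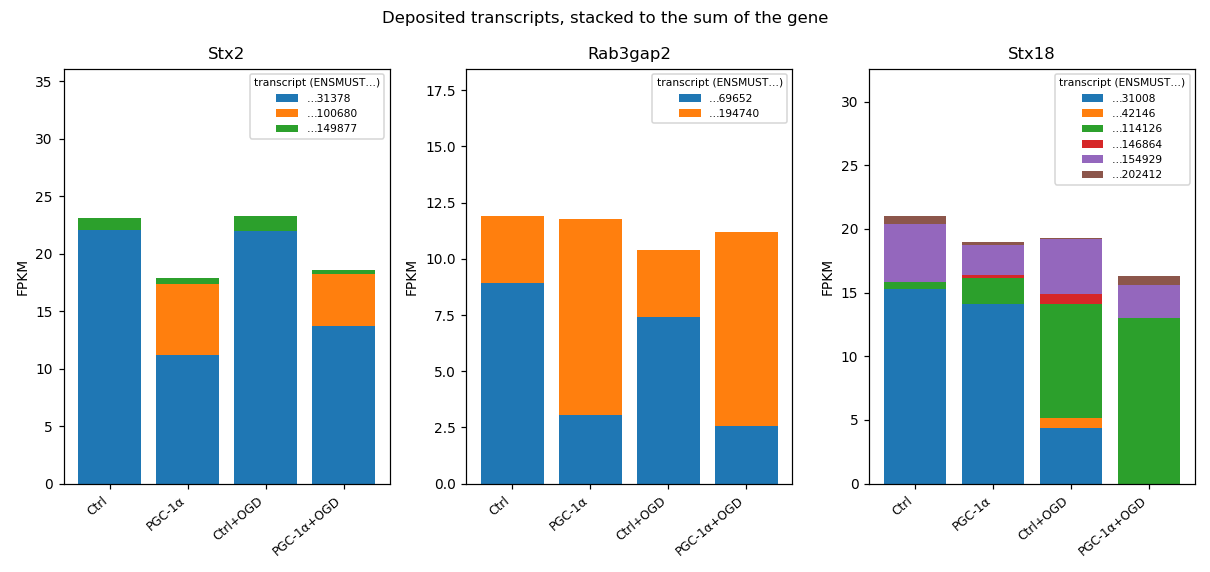
FPKM on the y axis of each listed transcript of Stx2, Rab3gap2 and Stx18, stacked to the sum of the gene, with 1 bar per library. The bar heights change little, while the colours divide the PGC-1α libraries from their controls in Stx2 and Rab3gap2 and the OGD libraries from the others in Stx18.

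All 7 R-SNAREs were listed, and only Vamp1 passed 1.5-fold in any comparison, beside 24.7% of all genes. Vamp8, Vamp3 and Vamp2 were the most abundant (above), and Vamp8 was the member with the highest mean of all, 63.6 FPKM. Vamp4 of the trans-Golgi network was at 16.5, 15.7, 15.1 and 14.4 FPKM, and Vamp5 at 11.9, 14.4, 9.77 and 12.2 FPKM. Vamp7 (tetanus-insensitive VAMP), annotated on the scaffold GL456233.1, was at 13.1, 13.5, 9.16 and 10.8 FPKM. Vamp1, the synaptobrevin of spinal and brainstem synapses, was at 4.22 FPKM in Ctrl and 1.68 in PGC-1α, then 1.42 in Ctrl+OGD against 1.43 in PGC-1α+OGD. Ctrl was higher than the other 3 libraries, which were close to each other. Vamp1 therefore fell in PGC-1α vs Ctrl (log2 -0.96) and in Ctrl+OGD vs Ctrl (-1.11), 2 comparisons that share the Ctrl library. The excess in Ctrl was transcript ENSMUST00000063588, at 2.50 FPKM there and listed at 0 in the others, while ENSMUST00000100942 was at 1.73, 1.68, 1.42 and 1.43 FPKM. By the latter, the highest transcript, both calls were lost (-0.02 and -0.17).

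The Sec1/Munc18 and other syntaxin binding proteins comprised 4 listed genes of 7, and 3 of the 4 are described. Stxbp3 (Munc18c), the partner of Stx4a, was at 12.2, 12.9, 10.8 and 10.4 FPKM. Stxbp4 and Stxbp5 (tomosyn, an inhibitor of SNARE assembly) were at 10.5, 10.5, 8.50 and 9.70 FPKM and 6.83, 6.62, 7.76 and 7.90 FPKM. None of these 3 passed 1.5-fold, and Stxbp2 and Stxbp6 had no listed transcript.

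Of the 17 synaptotagmins Syt1 to Syt17, 4 had a listed transcript, and the calcium sensors of fast release, Syt1, Syt2 and Syt9, and of slower release, Syt7, were among the 13 without one. Syt13 was by far the most abundant, with a mean of 21.2 FPKM against 4.02 for Syt8, 1.43 for Syt17 and 1.34 for Syt11. It lacks the calcium-binding residues of the classical sensors. Syt13 was at 15.0 FPKM in Ctrl and 26.2 in PGC-1α, then 21.2 in Ctrl+OGD against 22.3 in PGC-1α+OGD, lowest in Ctrl. It was higher in PGC-1α than in Ctrl (log2 0.76), and within 1.5-fold in Ctrl+OGD vs Ctrl (0.47) and in PGC-1α+OGD vs Ctrl+OGD (0.07). A single transcript was listed, and whether reads were divided with unlisted transcripts is not known. Syt8 (4.63, 3.62, 4.14 and 3.67 FPKM), Syt17 (1.27, 1.70, 1.27 and 1.49 FPKM) and Syt11 (1.38, 1.5, 1.22 and 1.27 FPKM) did not pass 1.5-fold.

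Prrt2 showed the largest difference of any member on the log2(FPKM + 1) scale, whereas with a pseudocount of 0.1 Napb was ahead of it in PGC-1α vs Ctrl (log2 4.41 against 3.74). It encodes a proline-rich transmembrane protein that binds SNARE proteins and is mutated in paroxysmal kinesigenic dyskinesia. Its level was 0.812 FPKM in Ctrl and 12.1 in PGC-1α, then 12.4 in Ctrl+OGD against 1.26 in PGC-1α+OGD. PGC-1α without OGD and Ctrl with OGD were high, and Ctrl and PGC-1α+OGD were low. The log2 fold changes were 2.85 in PGC-1α vs Ctrl, 2.89 in Ctrl+OGD vs Ctrl, -2.56 in PGC-1α+OGD vs Ctrl+OGD and -2.53 in PGC-1α+OGD vs PGC-1α. Prrt2 (chr7:127017531-127021211, minus strand) shares exons on its own strand with the gene model Gm42742, which was at 2.04, 0, 3.36 and 0 FPKM. The sum of both was 2.85, 12.1, 15.7 and 1.26 FPKM, which keeps all 4 calls, at 1.77, 2.12, -2.89 and -2.53 in the same order. Cplx2, the only listed complexin, had 1 transcript and was nearly flat at 4.34, 4.34, 4.76 and 4.57 FPKM.

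Of 17 annotated vesicle membrane and coat proteins, 12 were listed, 8 were compared and 4 passed 1.5-fold in 1 or more comparisons, a criterion met by 24.7% of all genes. Syngr2 (cellugyrin), a tetraspan protein of non-neuronal transport vesicles, was at 22.5 FPKM in Ctrl and 25.1 in PGC-1α, then 60.4 in Ctrl+OGD against 24.9 in PGC-1α+OGD. Ctrl+OGD stood above the other 3 libraries, which were close to each other. Syngr2 was thus higher in Ctrl+OGD vs Ctrl (log2 1.39) and lower in PGC-1α+OGD vs Ctrl+OGD (-1.25). Each of these comparisons contains that library. The 785-base transcript ENSMUST00000175737 supplied most of it, at 13.1, 15.0, 43.5 and 11.2 FPKM, while ENSMUST00000026649 was at 7.88, 8.96, 4.58 and 8.36 FPKM. Exons are shared with Gm20708, which stayed below 1 FPKM.

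The secretory carrier membrane proteins (SCAMPs), of recycling carriers, differed among themselves. Scamp3, the most abundant, was at 30.3, 32.0, 39.7 and 34.7 FPKM and within 1.5-fold throughout. Scamp1 was at 24.0, 19.4, 15.5 and 16.0 FPKM and fell in Ctrl+OGD vs Ctrl by 0.60 on the log2 scale, close enough to 1.5-fold that median ratio scaling, the highest transcript and length weighting each lost the call. Scamp2 was at 8.55, 7.55, 7.67 and 9.23 FPKM and did not pass. Scamp4 was at 6.46 FPKM in Ctrl and 3.56 in PGC-1α, then 1.17 in Ctrl+OGD against 11.3 in PGC-1α+OGD. It was highest in PGC-1α+OGD and lowest in Ctrl+OGD, with log2 fold changes that came to 2.50 in PGC-1α+OGD vs Ctrl+OGD, -1.78 in Ctrl+OGD vs Ctrl, 1.43 in PGC-1α+OGD vs PGC-1α and -0.71 in PGC-1α vs Ctrl. Scamp4 shares exons with the gene model Gm49322, at 0.900, 3.41, 0.745 and 0.590 FPKM. Summed, the locus was at 7.36, 6.96, 1.92 and 11.9 FPKM, where PGC-1α vs Ctrl ended at -0.07 and was no longer called, and the other 3 comparisons kept their calls (2.14, -1.52 and 0.70).

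Sypl (pantophysin), the general relative of synaptophysin, was at 7.91, 6.32, 4.32 and 7.40 FPKM. It was lowest in Ctrl+OGD, lower than in Ctrl (log2 -0.74) and than in PGC-1α+OGD (0.66 for PGC-1α+OGD vs Ctrl+OGD), and both calls were lost when transcripts were weighted by length. The neuronal Scamp5 (11.8, 12, 9.00 and 9.85 FPKM) and the testis-enriched Syngr4 (1.2, 1.79, 1.64 and 1.5 FPKM) did not pass 1.5-fold.

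NSF and its adaptors comprised 3 genes within 1.5-fold and 1 that passed it in 1 or more comparisons, beside 24.7% of all genes. Nsf, the ATPase that disassembles SNARE bundles, was at 13.5, 16.4, 18.0 and 18.7 FPKM, Napa at 20.8, 18.3, 22.0 and 20.1 FPKM and Napg at 15.4, 14, 13.5 and 14.1 FPKM, with no call. Napb (β-SNAP, the neuronal adaptor), with 1 listed transcript, was at 0.00603 FPKM in Ctrl and 2.15 in PGC-1α, then 1.86 in Ctrl+OGD against 0.0193 in PGC-1α+OGD. It was present in PGC-1α and Ctrl+OGD and near 0 in Ctrl and PGC-1α+OGD, the same libraries that were high and low for Prrt2. On the log2(FPKM + 1) scale the differences were 1.65 in PGC-1α vs Ctrl, -1.49 in PGC-1α+OGD vs Ctrl+OGD, 1.51 in Ctrl+OGD vs Ctrl and -1.63 in PGC-1α+OGD vs PGC-1α. Napa was the higher of the pair in every library.

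**Figure D4:**
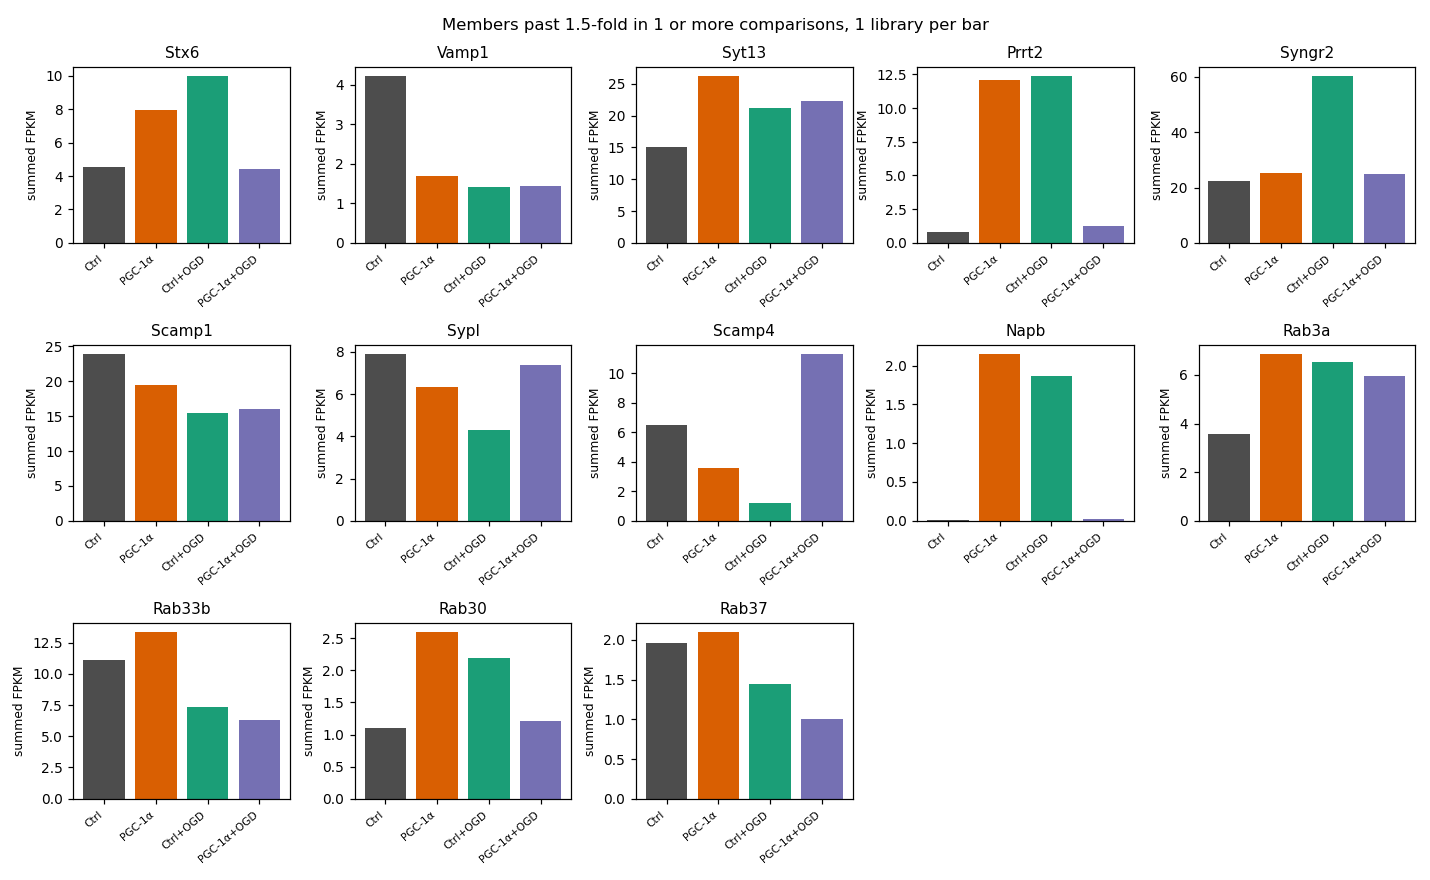
Summed FPKM on the y axis, from 0, of 13 of the 14 members past 1.5-fold in 1 or more comparisons, with 1 bar per library and no error bars because each group had 1 library. Prrt2, Napb, Stx6 and Rab30 are high in PGC-1α and Ctrl+OGD and low in Ctrl and PGC-1α+OGD, while Scamp4 is highest in PGC-1α+OGD and Syngr2 stands out in Ctrl+OGD only.

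The Rab3 GTPases mark secretory vesicles and are switched by a GTPase-activating complex (Rab3gap1 and Rab3gap2) and by exchange factors. Rab3ip and Rab3il1 were taken by their symbols. Of the GTPases, Rab3a and Rab3d were listed and Rab3b and Rab3c were not. Rab3a, the isoform of synaptic vesicles, was at 3.58 FPKM in Ctrl and 6.87 in PGC-1α, then 6.52 in Ctrl+OGD against 5.96 in PGC-1α+OGD, lowest in Ctrl, and was higher in PGC-1α vs Ctrl (log2 0.78) and in Ctrl+OGD vs Ctrl (0.71), the latter call being lost by the highest transcript (0.57). It was within 1.5-fold between the OGD libraries (-0.11). Its exons overlap on the opposite strand with Mpv17l2, which did not pass 1.5-fold (5.09, 6.57, 6.43 and 7.39 FPKM). Rab3d, of exocrine and other secretory granules, was at 6.14, 6.56, 4.76 and 4.86 FPKM. The remaining members of this group were flat as sums. Rab3gap1 was at 24.5, 25.9, 24.3 and 24.3 FPKM and Rab3ip at 19.5, 16.8, 20.9 and 19.9 FPKM. Rab3gap2 was at 11.9, 11.8, 10.4 and 11.2 FPKM and Rab3il1 at 3.21, 3.22, 3.21 and 3.67 FPKM.

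Rab3gap2, the non-catalytic subunit of the GTPase-activating complex, had 2 transcripts that exchanged places with PGC-1α. They differ by 60 coding bases, part of an exon, at chr1:185267015-185267074 (plus strand), which keep the frame (4161 against 4101 coding bases), and they also end at different places, being 7052 and 4418 bases long. Capitals mark the 60 bases.
Rab3gap2 with the segment: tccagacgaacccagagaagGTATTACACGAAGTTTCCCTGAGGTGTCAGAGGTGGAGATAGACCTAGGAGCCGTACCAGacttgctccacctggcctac
Rab3gap2 without the segment: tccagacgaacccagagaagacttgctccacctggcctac
The longer transcript, with the segment, was at 8.92 FPKM in Ctrl and 3.03 in PGC-1α, then 7.41 in Ctrl+OGD against 2.57 in PGC-1α+OGD, and the shorter one at 2.99, 8.75, 2.97 and 8.62 FPKM. The share with the segment was 74.9%, 25.7%, 71.4% and 23.0%. It was high in both control libraries and low in both PGC-1α libraries, as the sum stayed between 10.4 and 11.9 FPKM. Exons of Rab3gap2 overlap on the opposite strand with Iars2, at 17.7, 19.8, 18.4 and 17.1 FPKM.

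The Rab30 to Rab39 GTPases, which act at the Golgi, endosomes and lysosome-related organelles, had 7 listed genes of 12. Of these, 3 passed 1.5-fold in 1 or more comparisons, a criterion met by 24.7% of all genes. Rab31 (37.0, 33.3, 29.2 and 28.8 FPKM), Rab32 (14.8, 18.4, 20.8 and 24.7 FPKM) and Rab35 (15.7, 17.2, 18.7 and 18.4 FPKM) were the most abundant and did not pass. Rab33b, a Golgi and autophagy GTPase, was at 11.1, 13.4, 7.37 and 6.28 FPKM and fell in PGC-1α+OGD vs PGC-1α (log2 -0.98), with -0.53 in Ctrl+OGD vs Ctrl. Rab37, of secretory granules, was at 1.96, 2.1, 1.45 and 1.00 FPKM and fell in the same comparison (-0.63). Rab30, a Golgi GTPase, was at 1.10 FPKM in Ctrl and 2.60 in PGC-1α, then 2.19 in Ctrl+OGD against 1.21 in PGC-1α+OGD. It was higher in PGC-1α vs Ctrl (0.78) and in Ctrl+OGD vs Ctrl (0.60) and lower in PGC-1α+OGD vs PGC-1α (-0.71), with -0.53 in PGC-1α+OGD vs Ctrl+OGD. Rab36 was at 3.09, 2.98, 2.16 and 2.79 FPKM.

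The PGC-1α effect was measured in 2 comparisons that share no library, without OGD and with it. No member passed 1.5-fold in the same direction in both, beside 1.45% of all genes. In opposite directions, 4 members passed in both (Prrt2, Napb, Stx6 and Scamp4), 7.02% beside 0.943%. Of these, Scamp4 lost its call in PGC-1α vs Ctrl when summed with Gm49322. Stx6 lost that in PGC-1α+OGD vs Ctrl+OGD by the highest transcript or with length weighting. Napb, with a mean of 1.01 FPKM, reached the minimum mean only through PGC-1α and Ctrl+OGD. Its entry and its calls therefore rest on the same values, here and for OGD. For OGD, no member passed 1.5-fold in the same direction in both cell types (2.51% of all genes), and 5 passed it in opposite directions (the same 4 and Rab30), 8.77% beside 0.952%. The PGC-1α effect with and without OGD differed by at least 1.5-fold for 10 members (the 5 named and Syngr2, Sypl, Rab3a, Syt13 and Vamp1), 17.5% beside 15.0%. Both pairs of comparisons use the same 4 libraries, so the PGC-1α and OGD counts are not independent. Scamp4 ran against the other 4, being low in Ctrl+OGD and high in PGC-1α+OGD.

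**Figure D5:**
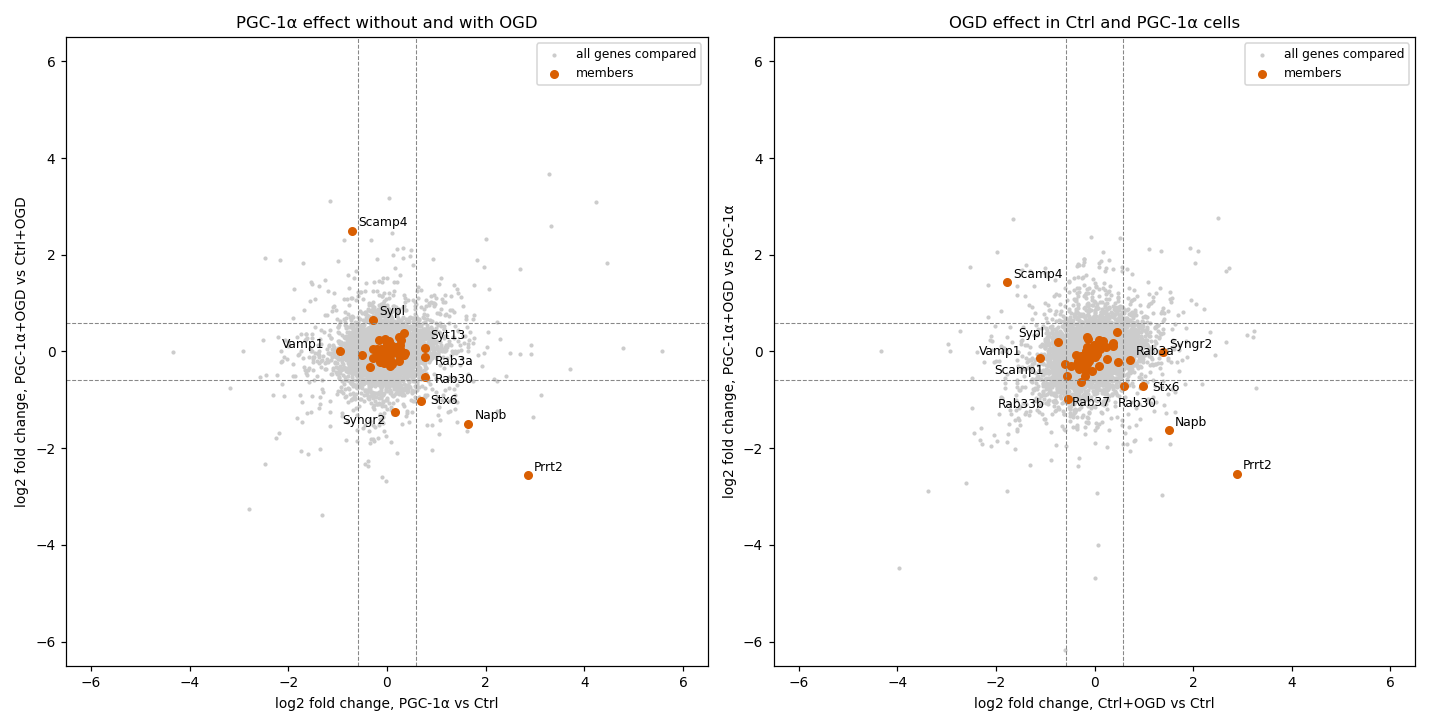
Log2 fold changes of 56 members (orange) and of all 10604 genes compared (grey), with PGC-1α vs Ctrl on the x axis and PGC-1α+OGD vs Ctrl+OGD on the y axis (left), and Ctrl+OGD vs Ctrl against PGC-1α+OGD vs PGC-1α (right), dashed lines marking 1.5-fold. Prrt2 (2.85 and -2.56), Napb (1.65 and -1.49) and Stx6 (0.70 and -1.01) lie at the lower right of the left panel and Scamp4 (-0.71 and 2.50) at the upper left, with most members inside the lines.

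The values above are sums over transcripts, and single transcripts were counted as well. The 61 members had 140 listed transcripts, 41 members had 2 or more, and at most 6 were listed for a member. Of the 91 member transcripts with a mean of at least 1 FPKM, 52 passed 1.5-fold in 1 or more comparisons (57.1% beside 49.4% of all 18301 such transcripts). In both PGC-1α comparisons, 6 passed in the same direction (6.59% beside 5.04%), those of Stx2 and Rab3gap2 described above and 1 each of Vamp5 and Rab33b, and 6 in opposite directions (6.59% beside 5.17%). In both OGD comparisons, 6 passed in the same direction (6.59% beside 6.80%) and 5 in opposite directions (5.49% beside 5.07%). Over the 41 members with several transcripts, the transcript with the highest mean was called in 1 or more comparisons for 24 members and the sum for 11, and the calls differed for 22. The same counts over all genes are not given here, so these are not read as particular to the members. Single transcripts also passed more often than sums in the whole table (49.4% against 24.7%).

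Several steady sums hid such exchanges. In Stx4a the transcript ENSMUST00000033075 was at 18.4, 21.4, 18.0 and 9.33 FPKM and ENSMUST00000121705 at 11.8, 7.96, 8.88 and 15.0 FPKM, the second being the larger only in PGC-1α+OGD. In Vamp5 ENSMUST00000074231 was at 9.93, 11.3, 8.05 and 4.55 FPKM and ENSMUST00000101285 at 0.343, 1.14, 0.739 and 5.54 FPKM. In Stx7 the 2 transcripts were at 4.78, 6.15, 2.91 and 7.55 FPKM and 5.77, 6.02, 7.98 and 4.12 FPKM. A 647-base transcript of Stx16, ENSMUST00000147038, was at 7.01, 11.3, 10.7 and 0 FPKM and thus listed at 0 in 1 library. These 4 examples were chosen after their values were seen.

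Neighbouring steps of the vesicle cycle were examined with lists written from general knowledge, and their counts of genes past 1.5-fold in 1 or more comparisons stand beside 24.7% of all genes. Of 17 other SNAREs and Sec1/Munc18 proteins, all were listed and 1 passed 1.5-fold, Vps33b, at 0.805, 0.195, 1.58 and 5.05 FPKM. Vps33b reached the minimum mean only through PGC-1α+OGD, so its entry and its calls with that library rest on the same value. Vti1b was the most abundant of the 17 (101, 104, 86.2 and 80.4 FPKM). The 11 exocyst genes, which tether vesicles before fusion, were all listed and none passed 1.5-fold, with medians between 0.05 and 0.11 on the log2 scale. Of 15 synaptotagmin-like and Rab27 secretion genes, 8 were listed, 6 were compared and none passed.

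Of 26 active zone and priming genes, which organize release sites, 7 were listed and 5 compared, and 3 passed 1.5-fold. Erc1 was at 4.94, 3.06, 3.95 and 10.7 FPKM and Ppfia3 at 1.83, 0.378, 0.877 and 2.40 FPKM, both highest in PGC-1α+OGD. Dnajc5 (cysteine string protein, a SNARE chaperone) was at 14.7, 14.1, 31.8 and 22.0 FPKM and higher in both OGD libraries than in their controls (log2 1.06 and 0.61). Unc13a, a neuronal priming factor, stayed below 1 FPKM (0.636, 0.484, 0.460 and 0.307 FPKM), and Unc13d was at 6.64, 5.07, 4.29 and 3.90 FPKM. Of 25 vesicle endocytosis genes, 21 were listed and 20 compared, and 3 passed 1.5-fold, namely Dnm1 (neuronal dynamin, 19.2, 13.3, 12.1 and 13.2 FPKM), Ston2 (3.30, 1.47, 2.12 and 2.51 FPKM) and Aak1 (3.88, 7.62, 2.54 and 4.20 FPKM). Of 21 transmitter loading genes, 13 were listed, nearly all of them vacuolar ATPase subunits, and 12 compared. Only Atp6v0c, the proteolipid of the proton channel, passed 1.5-fold, at 25.6 FPKM in Ctrl and 57.9 in PGC-1α, then 55.2 in Ctrl+OGD against 29.0 in PGC-1α+OGD, which was high and low in the same libraries as Prrt2.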

How the data were processed

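RNA-Seq was performed by the authors on 4 HT-22 libraries, 1 per group, with poly(A) RNA, a stranded kit and paired-end sequencing. Reads were aligned to GRCm38 with HISAT2 (version 2.1.0 in the submitters' processing notes). The deposited table holds 1 value per transcript and library. The values were taken as FPKM, since the authors do not name the unit, and the estimator and the filter on transcripts are not given in the sources used here. Groups were taken from the sample titles.

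Of 25889 transcripts, 25822 were matched to GENCODE M21 without version and 67 were left out. Transcripts were summed per symbol, and symbols with an average of 1 FPKM or more entered the comparison, on the log2(FPKM + 1) scale without further scaling. The criterion was 1.5-fold, that of the study without its p value. With 1 library per group the difference of the PGC-1α effect was likewise a value without a test. Genes sharing exons were found in the same annotation, which also gave the printed sequences, with 20 flanking bases at each junction. Promoters and proteins were not examined here. In the counts 1 listed member is included that is not reported here by name or value, and it was left out of the figures.

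Named genes were Ppargc1a, members past 1.5-fold, the most abundant of each role, neuronal isoforms with their paralogs, list genes past 1.5-fold, and transcripts whose call differed from the sum. The members, role groups and lists were chosen with earlier results of these data known. Each result was recomputed with the highest transcript, with upper quartile and median ratio scaling, with 2-fold as the criterion, with pseudocounts of 0.01 and 0.1, with a minimum mean of 5, and without that minimum. Summing with exon-sharing genes and weighting by transcript length were added after the data were seen. Scripts used pandas 2.3.3 and numpy 2.4.6 under Python 3.11.15, with matplotlib 3.10.9 for figures, and were tested on simulated data.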

Additional observations from a re-analysis of the deposited data

Results flagged for a closer look

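For 5 members, the libraries of the 2 cell types or of the 2 oxygen conditions moved in opposite directions past 1.5-fold. The PGC-1α effect with OGD minus that without OGD was -5.42 for Prrt2, -3.14 for Napb, -1.71 for Stx6 and 3.21 for Scamp4 on the log2(FPKM + 1) scale. For Rab30 the OGD effect in PGC-1α cells minus that in Ctrl cells was -1.31. With 1 library per group, none of these differences was tested. Prrt2 and Scamp4 share exons with other listed gene models. Stx6 and Rab30 have 2 listed transcripts each and Napb has 1, and any division of reads with unlisted transcripts is not known. Napb reached the minimum mean only through PGC-1α and Ctrl+OGD.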

How the results depend on the processing

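No paired analysis was possible because each group had 1 library, and for the same reason no library could be left out. Of 2212 values of the 57 compared members under the alternatives, 2149 kept their side of the criterion, some with a change of sign within 1.5-fold. Another 32 no longer passed it, 22 came to pass it and 9 reversed, passing it with the other sign. With a fold change of at least 2, the members higher and lower were 2 and 0 in PGC-1α vs Ctrl, 3 and 2 in Ctrl+OGD vs Ctrl, 1 higher in PGC-1α+OGD vs Ctrl+OGD and 2 lower in PGC-1α+OGD vs PGC-1α, and the PGC-1α effect differed for 6. With a mean of at least 5, 3 were lower in PGC-1α+OGD vs PGC-1α, since fewer members were compared. With the highest transcript, 11 were lower in PGC-1α+OGD vs Ctrl+OGD and 10 in PGC-1α+OGD vs PGC-1α, and the effect differed for 19. That setting also held every reversal, since 1 transcript then stands for several. No call was reversed, because each of these sums was within 1.5-fold and only the highest transcript passed it. In PGC-1α vs Ctrl the log2 values of that transcript were 1.29 for Rab3gap2, 3.94 for Snap23 and -0.81 for Stx11. For Snap23 it was 3.98 in Ctrl+OGD vs Ctrl, and each Snap23 value depends on the Ctrl library, where that transcript was near 0. In PGC-1α+OGD vs Ctrl+OGD the values were -0.65 for Rab3d, -0.59 for Rab3il1, -0.81 for Stx7 and -0.71 for Vamp5. For Rab3il1 it was -0.60 in PGC-1α+OGD vs PGC-1α. Weighted by length, 1 was higher in PGC-1α+OGD vs Ctrl+OGD and 2 were lower in Ctrl+OGD vs Ctrl. The shares of all genes under these alternatives are not given here, so the counts are not read as particular to the members. In the whole table, 49.4% of single transcripts passed 1.5-fold in 1 or more comparisons, against 24.7% of summed genes. The cause of the other shifts was not tested. Scalings moved no median of all genes by over 0.05. Rab30 lost its call in Ctrl+OGD vs Ctrl under upper quartile scaling, and came to pass 1.5-fold in PGC-1α+OGD vs Ctrl+OGD with smaller pseudocounts. Depth is unknown, so the counting error of low members such as Napb, Rab30 and Rab37 cannot be given.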
